A study of Mus musculus with 20 samples.

Results

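The 10 genes described here encode the core of the circadian clock and its direct outputs: Arntl (also called Bmal1), Clock, Npas2, Per1, Per2, Per3, Cry1, Cry2, Nr1d1 and Dbp. They were taken by name, not by their values, although earlier results of these data were known when they were chosen. The table held 19940 genes measured in 20 kidney samples from male mice. All 10 were in the table, and all 10 were among the 14630 genes that reached a normalized read count of 10 in at least 5 libraries. The 4 groups of 5 libraries were G3 Tert-/- at 47 weeks, Tert+/+ at 47 weeks, G3 Tert-/- at 7 weeks and Tert+/+ at 7 weeks. G3 Tert-/- mice are the generation 3 descendants of a line lacking the telomerase reverse transcriptase Tert, in which telomeres shorten from generation to generation. Tert+/+ mice carry the intact gene. The mutation is present in the whole animal, no other agent is named for any group, and strain and litter are not given in the sources used here.

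Each library was a count of 3′ ends of polyadenylated RNA from whole kidney (QuantSeq), with 7161690 to 9757594 reads assigned to genes. Marker genes of the proximal tubule, thick limb, distal tubule and collecting duct, and podocyte were detected in all 20 libraries. The targeted gene Tert was low throughout, at 5.11 to 8.31 normalized counts in G3 Tert-/- against 7.25 to 16.9 in Tert+/+ kidneys at 47 weeks, and at 0.979 to 5.65 against 4.21 to 15.7 at 7 weeks. The removed part of Tert is not named in the sources used here, so a 3′ end count is no check of the genotype. On the first principal component of all tested genes, which held 22.0% of the variance, Tert+/+ replicate 1 at 7 weeks (67.5) and Tert+/+ replicate 4 at 47 weeks (56.6) stood apart from the other 18 libraries (-39.4 to 21.0), and results that change without them are given with and without them. Single pairs of clock genes other than Arntl are given only with them. The labels do not say that the samples of a group came from separate animals, so p-values measure only the spread between these samples, each of which is called a kidney below.

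The mammalian clock is a transcriptional loop that runs in nearly every cell, kidney tubule cells included. ARNTL pairs with CLOCK or its relative NPAS2 and binds E-boxes in the Per and Cry genes, in Nr1d1 and in Dbp. PER and CRY proteins return to the nucleus and block that activator, and NR1D1 represses Arntl through a second element, the RORE. In mouse tissues the transcripts of Arntl and Npas2 therefore peak near the opposite time of day from those of Dbp and Per3, and Cry1 peaks later than the Per genes. In the kidney the clock is known for setting daily rhythms of sodium, potassium and water excretion. The hour at which the mice were killed is stated in the labels of 0 of the 20 samples, and thus was not given in the sources used here. A difference in collection time between groups and a difference in clock gene level between groups therefore cannot be told apart from the labels.

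Promoter sequence was matched for 9 of the 10 genes (all but Per2) in 13 RefSeq windows of 250 bases before to 50 after an annotated start, on GRCm38.p6. The motifs searched on both strands were the E-box CACGTG (in 7.15% of 32851 windows of the same length), the related E-prime box CACGTT (4.68%), the D-box TTANGTAA that DBP, TEF, HLF and NFIL3 bind (2.32%) and the RORE, TAGGTCA or TGGGTCA (6.45%). The windows of Clock, Npas2 and Dbp held none of these letters. The stretches that do hold a match are printed to show which of these letters each window holds, on the gene's strand, 5′ to 3′, with the match in capitals. An AACGTG in capitals is CACGTT on the other strand. A match is a description of the letters only.
Arntl, chr7:113207530-113207559, plus strand, 20 to 49 bases after the start, RORE: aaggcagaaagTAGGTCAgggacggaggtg
Per1, chr11:69098736-69098835, plus strand, E-box: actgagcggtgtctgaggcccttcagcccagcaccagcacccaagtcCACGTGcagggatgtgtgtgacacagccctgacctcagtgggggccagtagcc
Per3, chr4:151044794-151044893, minus strand, 2 D-boxes: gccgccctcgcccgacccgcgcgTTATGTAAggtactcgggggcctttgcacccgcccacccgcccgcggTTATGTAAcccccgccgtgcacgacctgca
Cry1, chr10:85185072-85185171, minus strand, E-prime box and E-box: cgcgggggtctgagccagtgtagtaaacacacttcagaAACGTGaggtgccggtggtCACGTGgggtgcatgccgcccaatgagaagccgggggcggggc
Cry2, chr2:92434183-92434282, minus strand, E-prime box: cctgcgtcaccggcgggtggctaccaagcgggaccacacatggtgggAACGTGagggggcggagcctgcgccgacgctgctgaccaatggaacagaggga
Nr1d1, chr11:98775378-98775477, minus strand, E-prime box: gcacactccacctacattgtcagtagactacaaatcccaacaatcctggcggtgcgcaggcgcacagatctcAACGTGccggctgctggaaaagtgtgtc

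The activators were described first. Arntl (GRCm38 chr7:113207465-113314126), the partner shared by CLOCK and NPAS2 and the gene whose loss stops the mouse clock, had normalized counts of 70.8, 57.3, 18.7, 58.2 and 80.8 in G3 Tert-/- kidneys at 47 weeks, against 11.4, 21.7, 53.6, 58.6 and 25.6 in Tert+/+ kidneys of that age. At 7 weeks it had 21.8, 75.4, 35.8, 66.4 and 66.5 in G3 Tert-/- kidneys, against 62.0, 35.7, 31.3, 37.0 and 23.6 in Tert+/+ kidneys. Each group held libraries near 20 and libraries near 60, so the groups overlapped and most of the variation lay within them. Across the 20 kidneys the highest Arntl value was 7.09 times the lowest.

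Npas2 (chr1:39193731-39363236) encodes the relative of CLOCK that can replace it as the partner of ARNTL. Its counts were 22.2, 20.5, 13.5, 11.2 and 27.3 in G3 Tert-/- kidneys at 47 weeks, against 7.25, 5.91, 14.6, 10.1 and 5.56 in Tert+/+ kidneys. At 7 weeks they were 10.9, 28.4, 9.42, 45.7 and 20.4 in G3 Tert-/- kidneys, against 21.6, 15.4, 12.7, 6.47 and 3.37 in Tert+/+ kidneys. The G3 Tert-/- mean was the higher of the pair at either age (18.9 ± 6.54 against 8.69 ± 3.76 at 47 weeks, 22.9 ± 14.8 against 11.9 ± 7.25 at 7 weeks; SD, n = 5 each), with overlapping libraries each time. These are low counts, and the lowest Tert+/+ value at 7 weeks lay just above the 2.52 normalized counts that 3 reads gave in that library. Clock (chr5:76209868-76304792), the histone acetyltransferase partner of ARNTL, was the steadiest member. It averaged 461 ± 26.0 in G3 Tert-/- and 411 ± 48.1 in Tert+/+ kidneys at 47 weeks, and 428 ± 45.6 in G3 Tert-/- and 489.6 ± 59.2 in Tert+/+ kidneys at 7 weeks (SD, n = 5 each). Its highest library was 1.70 times its lowest.

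Among the Period genes, which encode the repressors that accumulate during the day, Per3 (chr4:151003652-151044665) had 124, 212, 259.7, 171 and 162 normalized counts in G3 Tert-/- kidneys at 47 weeks, against 295, 279.8, 157, 134 and 306 in Tert+/+ kidneys. At 7 weeks Per3 had 254, 118, 196, 114 and 120.0 in G3 Tert-/- kidneys, against 185, 187, 175, 215 and 199 in Tert+/+ kidneys. Its 3 highest libraries were all Tert+/+ at 47 weeks, in the 3 kidneys with the lowest Arntl of that group, while its other 2 kidneys had 157 and 134. Per2 (chr1:91415982-91459324), a Period gene whose loss shortens the mouse clock, had 52.8, 40.9, 30.1, 31.7 and 25.3 in G3 Tert-/- kidneys at 47 weeks, against 67.4, 69.0, 31.2, 13.5 and 71.2 in Tert+/+ kidneys. At 7 weeks it had 58.1, 23.5, 64.0, 24.9 and 21.4 in G3 Tert-/- kidneys, against 14.8, 15.4, 31.3, 94.3 and 125 in Tert+/+ kidneys. The spread of Per2 was widest among 7-week Tert+/+ kidneys, which held both its highest libraries and 2 of its 3 lowest. Per1 (chr11:69095217-69109960), which also answers quickly to glucocorticoids, ranged from 26.3 to 64.5 in G3 Tert-/- and 38.0 to 79.8 in Tert+/+ kidneys at 47 weeks, and from 27.4 to 63.1 in G3 Tert-/- and 18.7 to 124 in Tert+/+ kidneys at 7 weeks. The same 2 libraries, Tert+/+ replicates 4 and 5 at 7 weeks, were highest for Per1 (124 and 110.2) and for Per2. That replicate 5 also had the highest Star, an adrenal cortex marker, at 460 against a median of 7.94 over the 20 kidneys. Star was the only 1 of 5 listed adrenal cortex markers in the table, and the part of adrenal tissue in that library was not tested.

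The cryptochromes encode the direct inhibitors of the CLOCK and ARNTL pair. Cry2 (chr2:92403646-92434043) had 57.0, 88.0, 106, 71.5 and 52.5 normalized counts in G3 Tert-/- kidneys at 47 weeks, against 124, 104, 98.3, 78.8 and 115 in Tert+/+ kidneys. At 7 weeks it had 102, 70.5, 97.0, 63.9 and 57.9 in G3 Tert-/- kidneys, against 87.6, 96.4, 80.2, 97.0 and 105 in Tert+/+ kidneys. At either age 3 G3 Tert-/- libraries lay below all 5 Tert+/+ libraries and the other 2 lay among them. Cry1 (chr10:85131700-85185064) was low in every group, with means of 22.2 ± 5.84 in G3 Tert-/- and 18.0 ± 6.16 in Tert+/+ kidneys at 47 weeks, and 17.3 ± 6.11 in G3 Tert-/- and 20.5 ± 15.7 in Tert+/+ kidneys at 7 weeks (SD, n = 5 each). The wide last group ran from 2.93 normalized counts, which is 3 reads, to 44.3 in replicate 1, the highest Cry1 value of all 20 libraries and 1 of the pair of libraries that stood apart.

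Dbp (chr7:45705088-45710203), a transcription factor driven directly by the loop and a common readout of its output, had 83.4, 121, 213, 66.4 and 49.5 normalized counts in G3 Tert-/- kidneys at 47 weeks, against 279, 226, 55.5, 34.9 and 282 in Tert+/+ kidneys. At 7 weeks it had 259.8, 59.7, 222, 34.9 and 66.5 in G3 Tert-/- kidneys, against 47.2, 109.9, 208, 222 and 224 in Tert+/+ kidneys. Every group held Dbp libraries above 200 and libraries below 70, and the highest of the 20 was 8.07 times the lowest. Nr1d1 (chr11:98767932-98775333), the nuclear receptor REV-ERBα that represses Arntl, ranged from 101 to 324 in G3 Tert-/- and 165 to 267 in Tert+/+ kidneys at 47 weeks, and from 88.1 to 218 in G3 Tert-/- and 135 to 254 in Tert+/+ kidneys at 7 weeks. Its 4 groups overlapped too. Clock, Npas2 and Per3 overlap another gene of the table on their own strand (Gm43658, Gm3617 and Camta1), and Nr1d1 and Dbp overlap Thra and Sphk2 on the opposite strand. The library kit keeps the strand, and the assignment of reads in such overlaps was not stated in the sources used here.

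**Figure D1:**
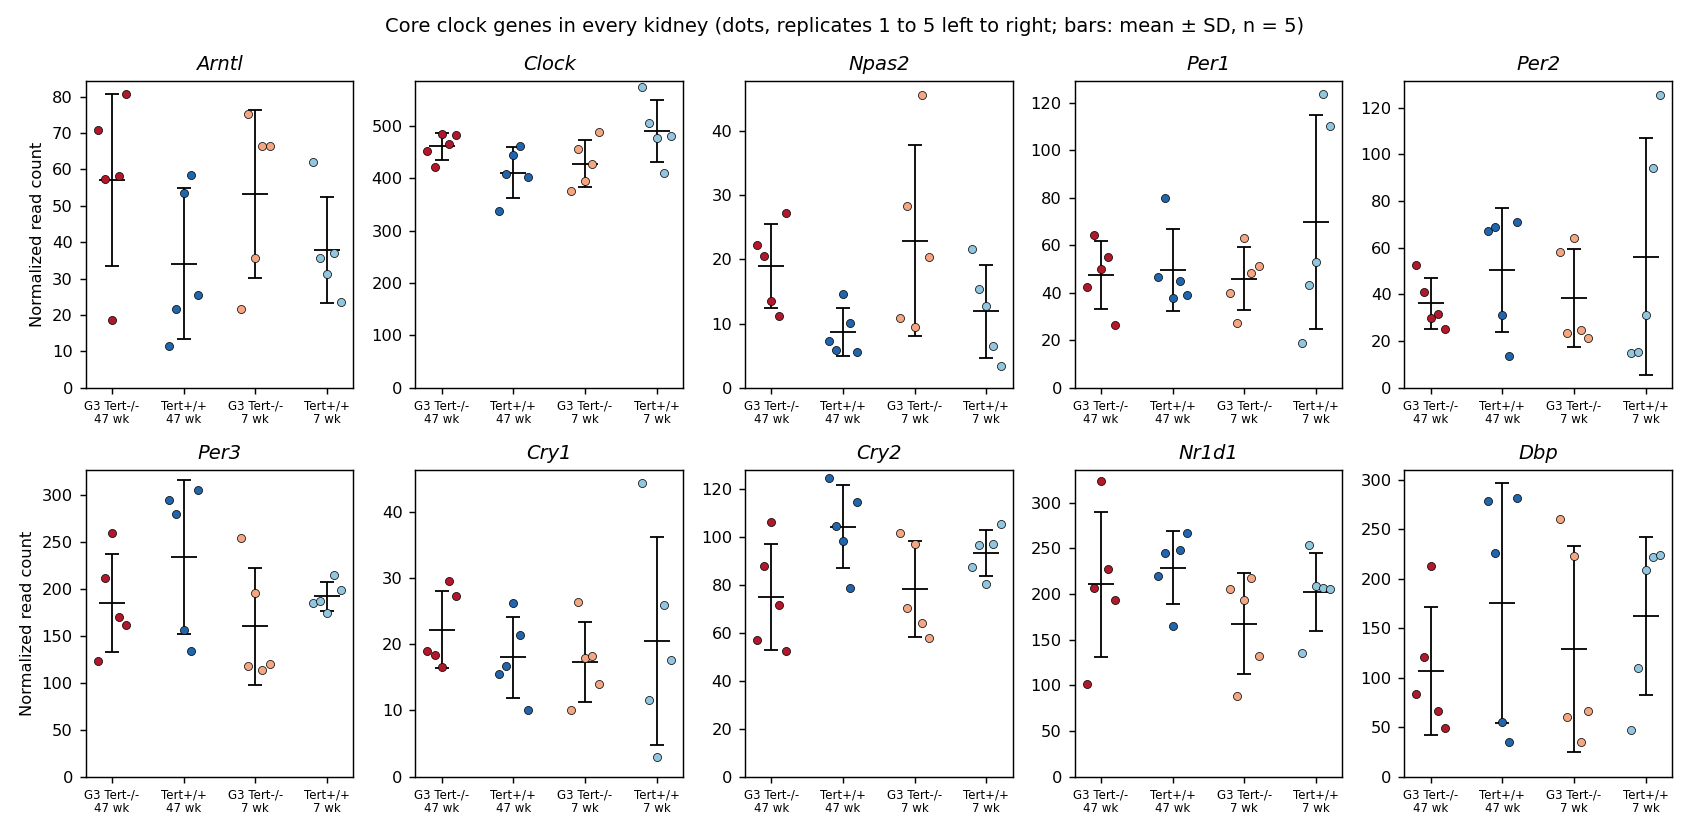
Normalized read count (linear axis from 0) of each of the 10 genes in every library, with G3 Tert-/- and Tert+/+ at 47 weeks followed by G3 Tert-/- and Tert+/+ at 7 weeks. Dots are single kidneys and bars are the mean ± SD of 5; Dbp reached both 34.9 and over 200 within groups, while Clock stayed between 337 and 574.

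The question put by the 47-week comparison is whether the kidneys of old G3 Tert-/- mice differ from those of old Tert+/+ mice. None of the 10 clock genes differed past the threshold of an adjusted p of 0.05 by limma over all tested genes, where 0.0957% of the 14630 genes (14) did. Without single kidneys of that age the 14 became 2 (without G3 Tert-/- replicate 2 or 4), 8 (without G3 Tert-/- replicate 1), 4 (without Tert+/+ replicate 1) or 7 (without Tert+/+ replicate 5), and at most 19. The smallest adjusted p among the 10 was 0.616, and edgeR and DESeq2 on whole reads recovered from the table also called none, against 0.103% and 0.342% of tested genes. For no member were the libraries of the 2 genotypes fully separated, against 2.31% of all tested genes. At an unadjusted p of 0.05, 2 members were called, against 6.58% of tested genes. Npas2 had the largest fitted difference, a log2 fold change of 1.05 (SE 0.44, 95% interval 0.15 to 1.96) in G3 Tert-/- over Tert+/+ kidneys, with an unadjusted limma p of 0.0244 and an adjusted p of 0.681. Cry2 had a log2 fold change of -0.50 (SE 0.19, 95% interval -0.89 to -0.11), with an unadjusted limma p of 0.0153 and an adjusted p of 0.616. Arntl had a log2 fold change of 0.81 (SE 0.42, interval -0.07 to 1.69) and Dbp one of -0.46 (SE 0.61, interval -1.72 to 0.80). Over the 10 members the median log2 fold change was -0.13, with 4 above 0, and over all tested genes it was 0.01, with 52.1% above 0. The members are transcripts of bulk kidney, in which fewer cells of a type and less RNA per cell cannot be told apart.

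At 7 weeks, when the mice were young adults, limma called 0 of the 10 members and 0 of the 14630 tested genes (0%). The smallest adjusted p among the members was 0.474, for Npas2, with a log2 fold change of 0.89 (SE 0.44, 95% interval -0.01 to 1.79) in G3 Tert-/- over Tert+/+ kidneys. At an unadjusted p of 0.05 none of the members was called, against 10.7% of tested genes. Dbp had a log2 fold change of -0.54 (SE 0.61) and Arntl one of 0.41 (SE 0.42). The members' median was -0.24, with 3 of 10 above 0, and the median of all tested genes was 0.00, with 50.2% above 0. edgeR and DESeq2 also called none of the 10, against 0% and 0.0889% of tested genes, and no member had fully separated genotypes, against 1.4% of tested genes.

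Age was compared within each genotype. In Tert+/+ kidneys, 47 against 7 weeks, limma called none of the 10 members and 0.649% of tested genes, and edgeR and DESeq2 called none against 0.69% and 1.44%. Clock had the smallest adjusted p, 0.378, with a log2 fold change of -0.25 (SE 0.11, 95% interval -0.47 to -0.03) at 47 over 7 weeks and an unadjusted limma p of 0.0266. It was the only member called at an unadjusted p of 0.05, against 10.6% of tested genes. No member had fully separated ages, against 2.53% of tested genes, and 5 of the 10 log2 fold changes were above 0, against 50.7%. In G3 Tert-/- kidneys limma again called none of the 10, against 2.24% of tested genes, as did edgeR and DESeq2, against 2.31% and 3.62%. There Clock had a log2 fold change of 0.11 (SE 0.11), and no member was called at an unadjusted p of 0.05, against 14.9% of tested genes. All 10 members had overlapping ages, where 4.6% of tested genes had none, and 7 of 10 log2 fold changes were above 0, against 50.5%. The 2 age comparisons share no libraries with each other, but each shares its groups with the genotype comparisons.

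The genotype by age interaction tests whether the genotype difference at 47 weeks differs from that at 7 weeks. It called none of the 10 members by limma or edgeR, against 0.00684% of tested genes each, and none by DESeq2, against 0.0593%. Clock was the only member called at an unadjusted p of 0.05, against 6.22% of tested genes, with an interaction of 0.36 on the log2 scale (SE 0.15, 95% interval 0.05 to 0.67) and a limma adjusted p of 0.774. Its mean was higher in G3 Tert-/- than in Tert+/+ kidneys at 47 weeks and lower at 7 weeks, with log2 fold changes of 0.17 (SE 0.11) and -0.19 (SE 0.11). Dbp and Arntl had interactions of 0.09 (SE 0.86) and 0.39 (SE 0.60). The 95% interval of the Dbp interaction ran from -1.69 to 1.87. The interactions of 8 members were above 0, against 50% of tested genes.

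**Figure D2:**
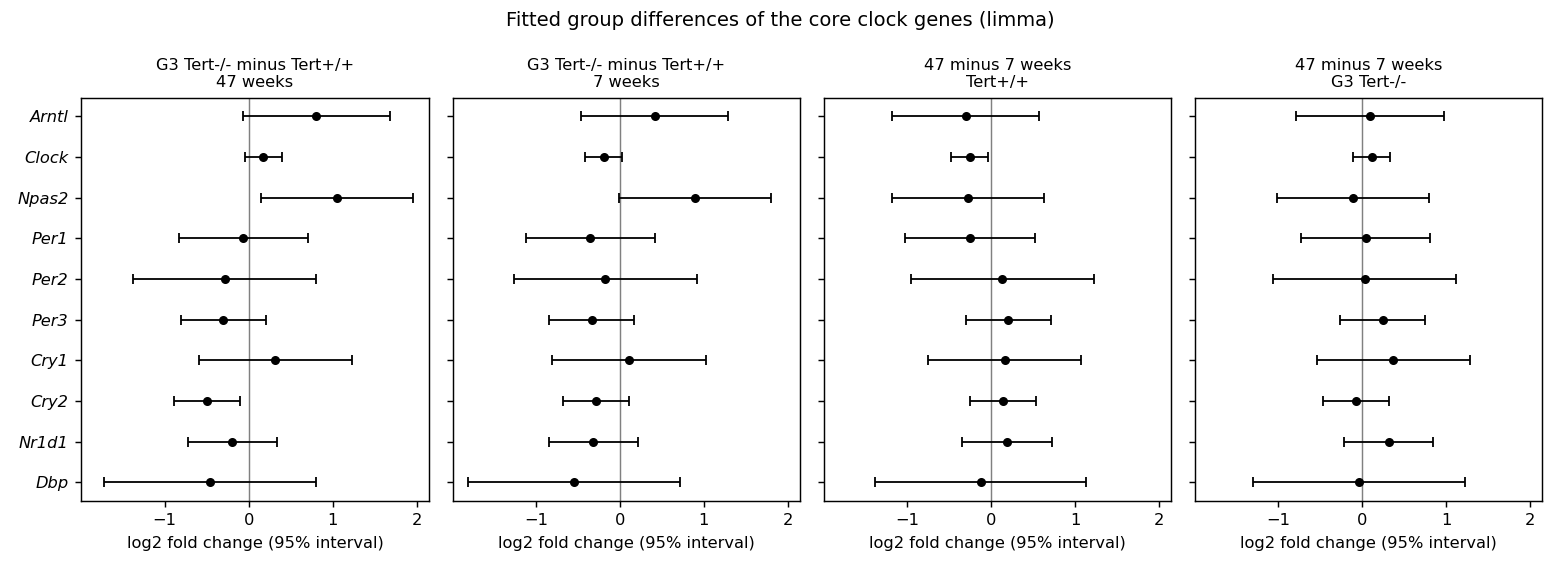
Log2 fold change of each clock gene in G3 Tert-/- over Tert+/+ kidneys at 47 weeks and at 7 weeks, and at 47 over 7 weeks in each genotype (points), with the 95% interval of the limma fit (bars). The intervals of Npas2 and Cry2 at 47 weeks and of Clock with age in Tert+/+ kidneys lie to 1 side of 0, and none of these passed after adjustment over all tested genes.

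The variation between kidneys of 1 group was the larger feature of these genes. The within-group SD of Dbp was 1.14 on the log2 scale, above 99.2% of the 14630 tested genes, where counting error alone would give about 0.119. Per2 had a within-group SD of 0.96 (98.4th percentile), Cry1 0.77 (95.9th), Arntl 0.77 (95.8th), Npas2 0.75 (95.3rd) and Per1 0.67 (92.8th), against a median of 0.30 over all tested genes. Counting error alone would give 0.21 for Arntl and Per2, and 0.36 for Npas2 and 0.32 for Cry1, a larger part of the spread of these low-count genes. Nr1d1 (0.46) and Per3 (0.44) lay in the upper part of the distribution and Cry2 (0.31) near its middle. Clock had 0.15, and 13612 of the 14630 genes were more variable. Without the pair of Tert+/+ libraries that stood apart, Dbp remained at the 99.0th percentile, Per2 at the 97.8th and Arntl at the 96.5th.

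Arntl and Dbp ran opposite to each other from kidney to kidney. The log2 level of Dbp minus that of Arntl was 0.23, 1.06, 3.44, 0.19 and -0.70 in the 5 G3 Tert-/- kidneys at 47 weeks, against 4.50, 3.32, 0.05, -0.73 and 3.41 in the Tert+/+ kidneys. The 7-week values were 3.52, -0.33, 2.60, -0.91 and 0 in G3 Tert-/- kidneys, against -0.39, 1.60, 2.70, 2.55 and 3.19 in Tert+/+ kidneys. Each group held at least 1 kidney above 2 and at least 1 below 1, and over the series 9 kidneys were above 2 and 9 below 1. The group medians were 0.23 in G3 Tert-/- and 3.32 in Tert+/+ kidneys at 47 weeks, and 0 in G3 Tert-/- and 2.55 in Tert+/+ kidneys at 7 weeks. These medians are a description without a test.

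**Figure D3:**
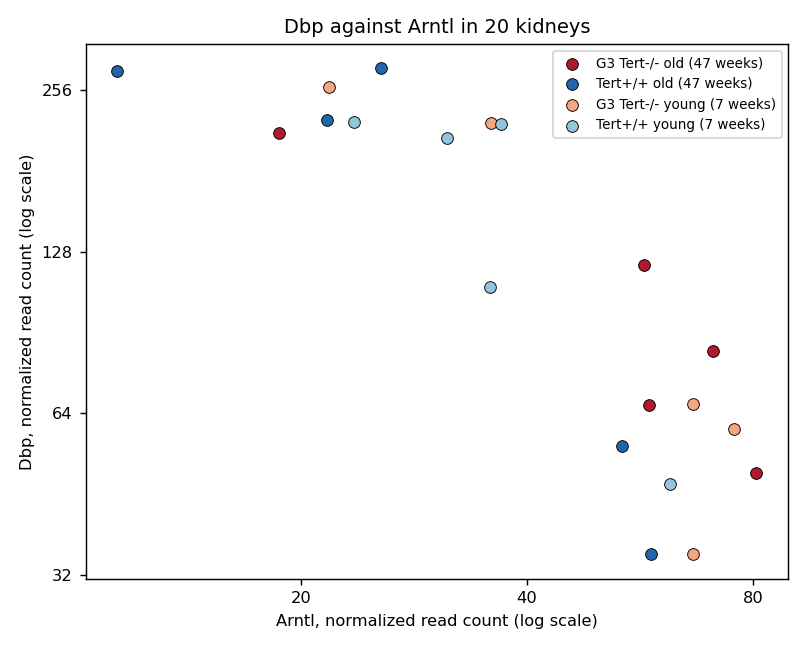
Normalized read count of Dbp (vertical, log axis) against Arntl (horizontal, log axis) in each of the 20 kidneys, marked by group. Kidneys with Arntl under 30 have Dbp over 200, those with the highest Arntl have Dbp under 100, and each group has kidneys toward either end.

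The relation was measured over the 20 libraries after the mean of each group was removed, which takes differences between groups out, with 100000 permutations of libraries within groups and adjustment over the 9 pairs of Arntl with another member. The largest gap between neighbouring centred Arntl values was 0.52 of a range of 2.40 log2 units. Dbp had a Pearson r of -0.88 with Arntl (permutation p = 3e-05, adjusted 0.00027) and a Spearman rho of -0.93 (permutation p = 4e-05, adjusted 0.00036). Per3 had an r of -0.84 (permutation p = 0.00019, adjusted 0.00057; rho -0.83, adjusted permutation p = 0.00141), and Cry2 an r of -0.81 (permutation p = 6e-05, adjusted 0.00027; rho -0.79, adjusted permutation p = 0.00045). Dbp, Per3 and Cry2 were thus the genes low where Arntl was high. Npas2 ran with Arntl, with an r of 0.66 (permutation p = 0.00116, adjusted 0.00261; rho 0.67), and so did Clock at 0.61 (adjusted permutation p = 0.011; rho 0.66) and Cry1 at 0.46 (adjusted permutation p = 0.0194; rho 0.57). Per2 had an r of -0.58 (adjusted permutation p = 0.0101; rho -0.71) and Nr1d1 one of -0.56 (adjusted permutation p = 0.0243; rho -0.48). Per1 did not pass, with an r of -0.39 (adjusted permutation p = 0.0581; rho -0.45).

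With group means kept, the kidneys were split at the middle of their order by Arntl. This set 10 kidneys above and 10 below in advance, and the sides were taken from the values themselves. In no kidney did Arntl lie between 37.0 and 53.6 normalized counts, the gap at the split, and in none did Dbp lie between 121 and 208. On the log2 scale the gap at the split was 0.52, and that between the 2 lowest Arntl values, 11.4 and 18.7, was wider. Libraries were permuted over a whole side, not within groups. Dbp had an r of -0.10 with Arntl among the 10 kidneys with high Arntl (permutation p = 0.788; rho -0.07) and of -0.52 among the 10 with low Arntl (permutation p = 0.128; rho -0.45). Cry2 kept its direction on either side, with an r of -0.82 where Arntl was high (permutation p = 0.0043, adjusted 0.0774; rho -0.88, adjusted permutation p = 0.0284) and of -0.73 where it was low (permutation p = 0.0202, adjusted 0.121; rho -0.72). Per3 had an r of -0.44 where Arntl was high and -0.71 where it was low (adjusted permutation p = 0.422 and 0.121), and Npas2 one of 0.63 and 0.19 (adjusted permutation p = 0.214 and 0.845). Of these 18 relations (9 genes on 2 sides), 4 had a permutation p of r under 0.05 and none passed after adjustment. These values do not test the relation over all 20 kidneys, because each side holds a narrower range of Arntl (an SD of 0.19 on the log2 scale where it was high and 0.50 where it was low, against 0.78 over the 20) and the sides differ in genotype (7 of the 10 kidneys with high Arntl and 3 of the 10 with low Arntl were G3 Tert-/-).

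In all, 8 of the 9 pairs passed. The smallest r that passed was 0.46 in size, and 11.7% of the 12118 tested genes with a mean of at least 20 had one as large. Without the pair of Tert+/+ libraries that stood apart 4 of 9 passed (Dbp, Per3, Cry2 and Npas2). The share of all genes was not computed for the 18 libraries left. In those 18 libraries the r of Dbp was -0.85 (adjusted permutation p = 0.00135), that of Per3 -0.85 (0.00168), that of Cry2 -0.79 (0.00099) and that of Npas2 0.63 (0.0121). Clock (r 0.50), Per2 (-0.42), Nr1d1 (-0.59) and Cry1 (0.36) had adjusted permutation p-values of 0.0557 to 0.0733 there. Without the 2 libraries farthest from the median of Arntl, Tert+/+ replicate 1 and G3 Tert-/- replicate 3 at 47 weeks, r was -0.91 for Dbp, -0.84 for Per3, -0.73 for Cry2 and 0.78 for Npas2. Leaving out single libraries gave 6 to 9 passing pairs. The 6 came without Tert+/+ replicate 1 at 7 weeks, when Cry1 (adjusted permutation p = 0.0525) and Nr1d1 (0.0588) missed the threshold, and Nr1d1 also missed it without G3 Tert-/- replicate 3 at 47 weeks (0.0622).

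Part of the 36 pairs that do not include Arntl fell into the same arrangement. After adjustment over the 36, 19 passed the permutation test, 9 of them with a positive r and 10 with a negative one. Without the pair of libraries that stood apart 11 of the 19 passed. Which 11 these were is not given here, so a pair named below may be one that did not pass then. The share of passing pairs among other genes was not computed, so these counts have no background to be set against. Per3 went with Dbp (r 0.86, adjusted permutation p = 0.00162; rho 0.86) and with Cry2 (r 0.85, adjusted permutation p = 0.00072; rho 0.87), and Per2 went with Dbp (r 0.77, adjusted permutation p = 0.00162; rho 0.80). Npas2 ran against Dbp (r -0.77, adjusted permutation p = 0.00252; rho -0.77) and against Per2 (r -0.77, adjusted permutation p = 0.00653; rho -0.79), and Clock ran against Per2 (r -0.75, adjusted permutation p = 0.00653; rho -0.80). Pairs in which no relation was detectable at this size included Nr1d1 with Per2 (r 0.12, adjusted permutation p = 0.612) and Cry1 with Per2 (r -0.16, adjusted permutation p = 0.696). Among the 36, Nr1d1 passed only with Per3 (r 0.54, adjusted permutation p = 0.0468) and Cry1 only with Dbp (r -0.52, adjusted permutation p = 0.0322). Low counts of Cry1 and Npas2 limit any r they enter.

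**Figure D4:**
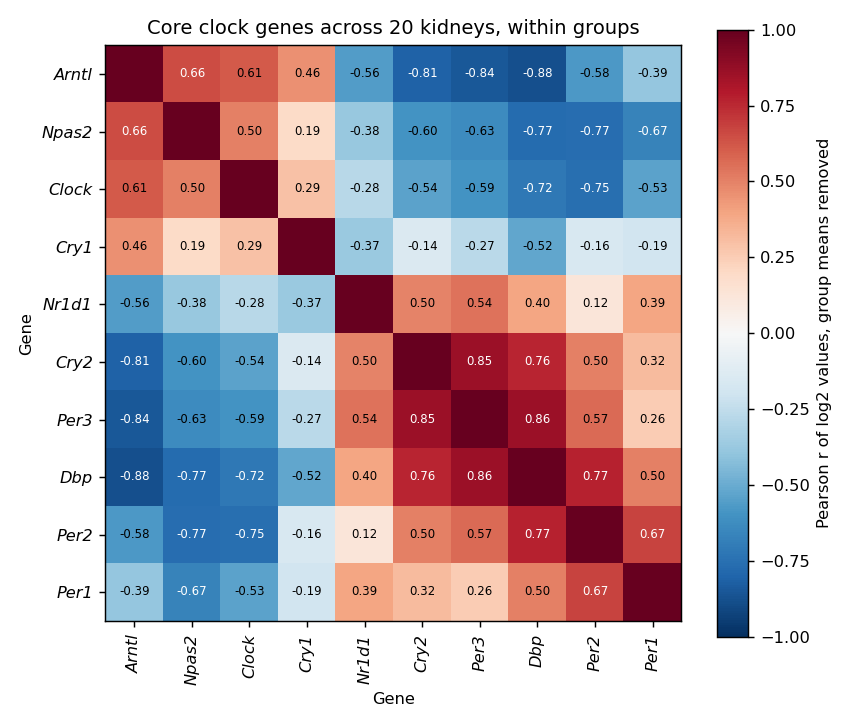
Pearson r between the log2 levels of each pair of clock genes over 20 kidneys with group means removed, on a colour scale centred on 0. Arntl, Clock and Npas2 are positive with each other and negative with Per3, Cry2 and Dbp, from -0.88 for Arntl with Dbp to 0.86 for Per3 with Dbp.

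The other transcription factors of the loop gave a second view of the same kidneys. Of 11 listed, 10 were tested (Arntl2 was below the filter on low values), and limma, edgeR and DESeq2 called none of the 10 in any of the 5 comparisons. At an unadjusted limma p of 0.05, 0 and 1 of them were called by genotype at 47 and 7 weeks (against 6.58% and 10.7% of tested genes), 2 and 0 with age in G3 Tert-/- and in Tert+/+ kidneys (against 14.9% and 10.6%), and 1 by the interaction (against 6.22%). Their relations with Arntl, in a family of 10, passed for 9 by Pearson r and 8 by Spearman rho. The smallest r that passed was 0.46 in size, and 11% of the 12118 tested genes with a mean of at least 20 had one as large, as 11.7% had for the smallest among the core members. Ciart, a repressor of the CLOCK and ARNTL pair, had an r of -0.82 (adjusted permutation p = 0.0004), although its counts were few and 0 in 3 libraries. Hlf and Tef, which bind the D-box as DBP does, had r of -0.78 (adjusted permutation p = 0.0005) and -0.73 (adjusted permutation p = 0.000467). Nr1d2, which encodes REV-ERBβ, had an r of -0.76 (adjusted permutation p = 0.000467). Nfil3, the D-box repressor that opposes DBP, ran with Arntl at 0.74 (adjusted permutation p = 0.00258). The repressors Bhlhe41 and Bhlhe40 had r of -0.68 and -0.60 (adjusted permutation p = 0.0084 each), and the RORE activators Rora and Rorb had -0.48 and -0.46 (adjusted permutation p = 0.0456 each), near that share of all genes. By Spearman rho, Rora did not pass (-0.37, adjusted permutation p = 0.145) and Rorb did (-0.52, adjusted permutation p = 0.0342). Without the pair of libraries that stood apart 5 of 10 passed: Ciart, Hlf, Tef, Nr1d2 and Nfil3. The share of all genes was not computed without that pair.

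Likeness to Arntl was ranked over all 12118 tested genes with a mean of at least 20. Genes with Gm, Rik or identifier-only names kept their ranks but were left out of the 5 named at each end. The 5 named genes most opposite to Arntl were Dbp, Per3, Cry2, Nat8f3 (r -0.80) and Cpeb3 (r -0.80), so 3 of the 5 were members. Dbp was the lowest of the 12118, Per3 the 2nd and Cry2 the 4th. Hlf was the 8th lowest of the 12118, Nr1d2 the 10th and Tef the 19th, while Per2 was 192nd, Nr1d1 246th and Per1 1459th. The named genes at the other end were Stra6l (0.86), Rdh16f2 (0.85), Rtl6 (0.82), Ppard (0.82) and Rhobtb1 (0.81). Nfil3 was the 16th and Clock the 110th highest of the 12118. An r at or beyond 0.7 in either direction was found for 0.429% of these genes, 27 below and 25 above. Npas2 and Cry1 had means under 20 and were not ranked. Without the pair of libraries that stood apart the lowest 3 were Tef, Dbp and Per3. These r are over 20 libraries with group means removed and are given as a description of likeness, without a p.

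**Figure D5:**
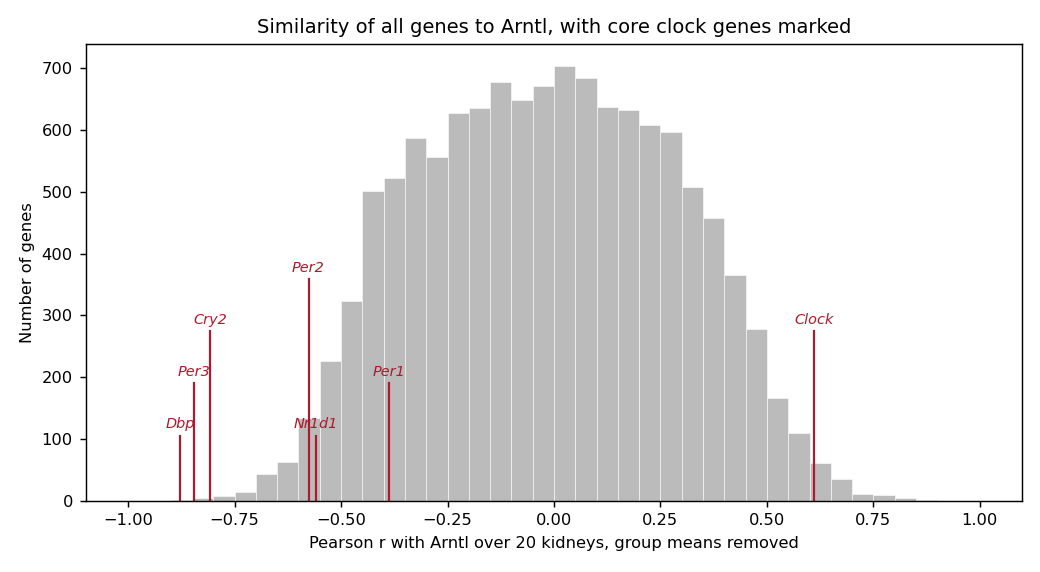
Number of genes (vertical) by Pearson r with Arntl over 20 kidneys with group means removed (horizontal), for 12118 genes with a mean normalized count of at least 20; vertical marks show the clock genes among them. Dbp, Per3 and Cry2 lie at the far negative end, and 0.429% of all genes lie at or beyond 0.7 in either direction.

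Further gene lists covered what acts on the clock and what it acts on. Of 14 kinases, phosphatases, ubiquitin ligases and other modifiers or partners of clock proteins, limma, edgeR and DESeq2 called none by genotype (1 at 47 weeks and 3 at 7 weeks at an unadjusted limma p of 0.05, against 6.58% and 10.7% of tested genes). Sfpq, an RNA-binding partner of PER proteins, rose with age in G3 Tert-/- kidneys, with 1233 ± 150.2 normalized counts at 47 weeks against 918 ± 104 at 7 weeks (SD, n = 5 each) and a log2 fold change of 0.42 (SE 0.10, limma adjusted p = 0.0306). In Tert+/+ kidneys Sfpq averaged 1044 ± 111 at 47 weeks and 1038 ± 88.3 at 7 weeks, and the interaction did not pass (limma adjusted p = 0.774). The call in G3 Tert-/- kidneys was lost without replicate 2 or 5 at 47 weeks or replicate 1, 2 or 4 at 7 weeks, with limma adjusted p-values up to 0.107.

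Of 17 genes known to be clock-controlled in kidney or more widely, limma and edgeR called none by genotype (4 at 47 weeks and 3 at 7 weeks at an unadjusted limma p of 0.05, against 6.58% and 10.7% of tested genes). DESeq2 called Cdkn1a, the cell cycle inhibitor p21, at 47 weeks (limma log2 fold change 1.06, with an adjusted p of 0.0327 by DESeq2, which called 0.342% of tested genes there, and 0.167 by limma). With age, at an unadjusted limma p of 0.05, 7 of the 17 were called in G3 Tert-/- kidneys (against 14.9% of tested genes). In Tert+/+ kidneys 2 were (against 10.6%). Slc12a3, the thiazide-sensitive sodium chloride cotransporter of the distal tubule, rose with age in G3 Tert-/- kidneys, with 6672 ± 1059 normalized counts at 47 weeks against 4317 ± 584 at 7 weeks and a log2 fold change of 0.62 (SE 0.11, limma adjusted p = 0.00251). It also rose in Tert+/+ kidneys, with 6156 ± 448 at 47 weeks against 4130.3 ± 181 at 7 weeks and a log2 fold change of 0.57 (SE 0.11, limma adjusted p = 0.0109). Both calls passed under all 28 alternatives run. Slc12a3 is also a marker of its segment. The other 5 distal and collecting duct markers summed to 1619 to 2280 at 47 weeks against 1284 to 1797 at 7 weeks in G3 Tert-/- kidneys, and to 1631 to 1978 at 47 weeks against 1515 to 2301 at 7 weeks in Tert+/+ kidneys, so the ages overlapped in either genotype. None of the 5 was called by limma with age, and the part of the segment's cells in the result was not tested. The median log2 fold change of the 17 genes was 0.10 by genotype at 47 weeks and -0.16 at 7 weeks, against 0.01 and 0.00 over all tested genes.

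Genes of the cues that set peripheral clocks were followed too, and limma called none of them by genotype at either age. None of 11 glucocorticoid-responsive genes was called by limma or edgeR in any comparison (at most 1 in each at an unadjusted limma p of 0.05, against 6.22% to 14.9% of tested genes). DESeq2 called Sgk1, a kinase that promotes sodium reabsorption, with age in Tert+/+ kidneys (limma log2 fold change -0.83, with an adjusted p of 0.0098 by DESeq2, which called 1.44% of tested genes there, and 0.106 by limma). Sgk1, Fkbp5 (474, median of 20 kidneys 142), Klf9, Errfi1 and Dusp1 had their highest values in Tert+/+ replicate 5 at 7 weeks. Tsc22d3, Zbtb16 (114, median 28.5), Ddit4 and Cebpd had theirs in Tert+/+ replicate 4 at 7 weeks, and Mt1 and Mt2 in G3 Tert-/- replicate 1 at 7 weeks. Those Tert+/+ kidneys were also highest for Per1 and Per2, and a relation between these genes was not tested. Of 12 heat shock and cold-induced genes, Hspe1, a mitochondrial chaperonin subunit, fell with age in G3 Tert-/- kidneys, with 1911 ± 298 normalized counts at 47 weeks against 2635 ± 220.3 at 7 weeks and a log2 fold change of -0.47 (SE 0.11, limma adjusted p = 0.0256). Of 10 fasting-responsive genes, Angptl4, an inhibitor of lipoprotein lipase, fell with age in G3 Tert-/- kidneys, with 97.1 ± 40.6 at 47 weeks against 207 ± 41.7 at 7 weeks and a log2 fold change of -1.16 (SE 0.30, limma adjusted p = 0.0365). With age, at an unadjusted limma p of 0.05, 5 of the 12 and 1 of the 10 were called in Tert+/+ kidneys (against 10.6% of tested genes). In G3 Tert-/- kidneys 2 of the 12 and 3 of the 10 were (against 14.9%). The call of Hspe1 was lost without G3 Tert-/- replicate 2, 3, 4 or 5 at 47 weeks or 1 or 2 at 7 weeks (limma adjusted p up to 0.0853), and that of Angptl4 without G3 Tert-/- replicate 2, 3 or 4 at 47 weeks or 1, 2, 3 or 4 at 7 weeks (up to 0.121). In Tert+/+ kidneys limma called neither, with log2 fold changes at 47 over 7 weeks of -0.45 for Hspe1 and -0.67 for Angptl4, and the interactions were -0.02 (limma adjusted p = 0.992) and -0.50 (limma adjusted p = 0.866). DESeq2 called Hspe1 in Tert+/+ kidneys (adjusted p = 0.0079), together with the heat shock genes Hsp90aa1 (0.0141) and Hsph1 (0.0309). In Tert+/+ replicate 4 at 7 weeks, Hsp90aa1 (8264, median of 20 kidneys 3452), Hsph1 (1491, median 594) and Hspe1 (3304, median 2327) had their highest values. So did Hspa8, Dnajb1, Dnaja1, Hspb1 and Hspd1, while the cold-induced Cirbp (38.8, median 150) and Rbm3 (138, median 280) were lowest there. Hspa1a and Hspa1b were highest in G3 Tert-/- replicate 4 at 7 weeks. DESeq2 was not run without single kidneys. Of 11 immediate early genes, which tissue handling can induce, 7 were tested and limma, edgeR and DESeq2 called none (at most 2 in each comparison at an unadjusted limma p of 0.05, the 2 being with age in Tert+/+ kidneys, against 10.6% of tested genes).

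Markers of cell types moved in the same age comparisons. In G3 Tert-/- kidneys 2 of 5 proximal tubule markers fell with age, Slc22a6 (log2 fold change -0.69, limma adjusted p = 0.0399), an organic anion transporter, and Slc5a2 (-0.58, limma adjusted p = 0.0338), a glucose transporter, and the 5 summed to 31047 to 35812 normalized counts at 47 weeks against 35959 to 44565 at 7 weeks. Of 5 hepatocyte markers, Serpina1a rose (1.93, limma adjusted p = 0.00917) and Ttr fell (-1.52, limma adjusted p = 0.00513). These calls of 2 of 5 in each list stand against 2.24% of tested genes called by limma there. Of 3 thick limb markers limma and edgeR called none there, and DESeq2 called Slc12a1 higher (log2 fold change 0.84, adjusted p of 0.0128 by DESeq2). Of 5 tested B and plasma cell markers limma called none there, and edgeR, which called 2.31% of tested genes, called Igkc, the kappa light chain (limma log2 fold change 2.44, adjusted p of 0.0171 by edgeR and 0.069 by limma). DESeq2 called 3 of the 5 higher, Igkc (adjusted p of 0.0023 by DESeq2), Ighm (0.043) and Jchain (0.0436), where it called 3.62% of tested genes. In Tert+/+ kidneys limma called 3 of the 5 higher at 47 weeks (against 0.649% of tested genes) and DESeq2 4 (against 1.44%). The summed list ran from 2958 to 9348 at 47 weeks against 81.6 to 599.6 at 7 weeks. The part of these cells in the age differences of Sfpq, Slc12a3, Hspe1, Angptl4, Sgk1, Hsp90aa1 and Hsph1 was not tested.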

How the data were processed

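Kidney samples of male mice, 20 in 4 groups of 5, were profiled with a directional 3′ end kit, per the labels' protocols. The submitters' processing notes name HTSeq 0.6.1, DESeq2, TopHat2 2.0.10, FastQC 0.11.7, SAMtools 0.1.19 and Bowtie 1.0.0, and the build GRCm38. The authors deposited 1 table of normalized counts, a signal scaled by 1 size factor per library. Whole reads were recovered by dividing by each library's smallest step, and 100% of values were whole within 1e-06, giving 7161690 to 9757594 reads per library. Where 3 reads are the floor, it lay at 2.49 to 3.38 normalized counts. No 2 replicates agreed within sampling noise (chi-square per degree of freedom at least 3.59 over 40 pairs).

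Genes with a normalized count of at least 10 in 5 libraries were tested with limma 3.58.1 (trend, 4 group means, 16 residual degrees of freedom, R 4.3.3) on log2(normalized count + 1), a scale that understates changes of low genes, with Benjamini-Hochberg adjustment over 14630 genes. edgeR 4.0.16 and DESeq2 1.42.0 on the recovered reads, a pseudocount of 5, no filter, TMM scaling, array weights, only the groups compared, and leaving out libraries were alternatives. The scripts were tested on simulated data. Relations used log2 values centred on group means and 100000 permutations within groups (smallest possible p 1e-05). Named genes were all 10 members, list genes that passed, and the 5 most and 5 least like Arntl, leaving out Gm, Rik and identifier-only names. The members and the lists were chosen with earlier results of these data known, and the alternatives without the pair of Tert+/+ libraries that stood apart, for spread, ranks, the 36 pairs and the other factors, and the relations on each side of the gap in Arntl, were added after seeing the data. Replicate numbers follow accession order and pair nothing. Coordinates are GENCODE's, and promoters RefSeq's, on GRCm38. The values of 1 listed gene are not reported here.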

Additional observations from a re-analysis of the deposited data

Results flagged for a closer look

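The lowest and the highest library of each clock gene were set against the other 4 of its group in 40 gene and group combinations, and 1 stood far from the others. Per1, which encodes a Period repressor, had 79.8 normalized counts in Tert+/+ replicate 2 at 47 weeks, against 38.0 to 46.6 in the other 4 kidneys of that group. Chance sets about 1 in 20 groups apart in this way.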

How the results depend on the processing

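All 5 counts of members passing stayed at 0 under each alternative run, and the lowest adjusted p of any member was 0.156, with array weights. No paired analysis was possible because the labels give no replicate numbers or litters. The sign of small log2 fold changes, none of which passed, depended on the setting. With edgeR and DESeq2 it turned for Cry1 by genotype at 7 weeks (-0.24 in each), with age in Tert+/+ kidneys for Per2 (-0.16 in each), Cry1 (-0.18 in each) and Dbp (0.11 in each), with age in G3 Tert-/- kidneys for Per2 (-0.090 and -0.086), and for the interactions of Per2 (0.075 and 0.071), Per3 (-0.074 in each) and Dbp (-0.38 in each). Array weights turned Per2 with age in G3 Tert-/- kidneys (-0.093) and the interactions of Per3 (-0.12) and Dbp (-0.14). Without both Tert+/+ libraries that stood apart the interactions of Npas2 (-0.025), Per3 (-0.13) and Cry1 (-0.087) turned, and passing pairs with Arntl were 4 of 9. The cause of these changes was not tested.

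Leaving out single libraries gave both signs for Per1 (-0.19 to 0.13) and Nr1d1 (-0.37 to 0.044) by genotype at 47 weeks and for Per2 (-0.51 to 0.24) and Cry1 (-0.40 to 0.48) at 7 weeks. With age in Tert+/+ kidneys it did so for Arntl (-0.55 to 0.015), Per1 (-0.64 to 0.028), Per2 (-0.20 to 0.55), Cry1 (-0.35 to 0.53) and Dbp (-0.51 to 0.34). With age in G3 Tert-/- kidneys it did so for Arntl (-0.19 to 0.44), Npas2 (-0.35 to 0.19), Per1 (-0.13 to 0.23), Per2 (-0.14 to 0.25), Cry2 (-0.21 to 0.042) and Dbp (-0.40 to 0.32). Interactions with both signs were those of Npas2 (-0.10 to 0.50), Per2 (-0.52 to 0.23), Per3 (-0.14 to 0.22), Cry1 (-0.16 to 0.72), Nr1d1 (-0.088 to 0.36) and Dbp (-0.38 to 0.47). Pairs of Arntl that passed numbered 6 to 9, and Per1 was the added pair without G3 Tert-/- replicate 2 or Tert+/+ replicate 1 at 47 weeks, or G3 Tert-/- replicate 1 or Tert+/+ replicate 4 at 7 weeks (adjusted permutation p from 0.0358 to 0.0474). Other values kept their sign but moved by over 1.5 times, such as Arntl (0.49 to 1.16) and Dbp (-0.92 to -0.17) by genotype at 47 weeks, and Arntl (0.26 to 0.69), Npas2 (0.55 to 1.15) and Dbp (-0.93 to -0.18) at 7 weeks. Over all genes, leaving out single libraries gave 2 to 19 calls by genotype at 47 weeks and 0 to 2 at 7 weeks (2 without Tert+/+ replicate 2 at 7 weeks), 56 to 124 with age in Tert+/+ kidneys (56 without replicate 2 or 5 at 47 weeks, 59 without replicate 1 at 47 weeks, 60 without replicate 4 at 7 weeks), 192 to 501 with age in G3 Tert-/- kidneys (192 to 215 without G3 Tert-/- replicate 2, 4 or 5 at 47 weeks or 1 or 2 at 7 weeks, 501 without Tert+/+ replicate 1 at 7 weeks) and 0 to 2 for the interaction. Array weights raised the calls to 95, 1, 367, 1007 and 2 in the 5 comparisons, against 14, 0, 95, 327 and 1. Depth limits Npas2 and Cry1, whose libraries came down to 3 or 4 reads.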

Other observations

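The centred level of Arntl was also set against 11 measures of each library, chosen after the values were seen: the reads, the first principal component and the summed markers of 9 lists. None passed the permutation test after adjustment over the 11 (adjusted permutation p-values from 0.423 to 0.997). The first principal component had an r of 0.44 (permutation p = 0.0644; rho 0.53, permutation p = 0.019, adjusted 0.209) and an r of 0.57 without the 2 libraries farthest from the median of Arntl. The proximal tubule markers had an r of 0.08, and 0.52 without those 2 libraries, and the distal and collecting duct markers 0.27, and 0.46 without them. Of the other measures, the reads per library had -0.31 (permutation p = 0.169; rho -0.27), the thick limb markers 0.33 (permutation p = 0.092; rho 0.31) and the mitochondrially encoded transcripts -0.30 (permutation p = 0.115; rho -0.36). A p that misses the threshold does not show that these measures are unrelated to Arntl.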
